A study of Rattus norvegicus with 3 samples.

Results

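Complement, coagulation and acute phase genes encode the plasma proteins and cell surface factors that form clots, mark and lyse targets, and rise in blood after injury. The genes described here were chosen by a list of 43 symbols, and a gene was measured when a probe set carried that single symbol in the platform annotation. By this rule 36 of the 43 genes were measured, each by 1 probe set, out of 15037 named genes on the array. The 7 others (F5, F11, C2, Cfb, C5, C7 and Cd59) had no probe set under these symbols. Cd59b, which the reference annotation lists as the current symbol for Cd59, was measured and is given apart from the 36.

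Total RNA from kidney of male Wistar rats, 7 weeks old in the study's methods, was hybridized to 3 Clariom S arrays, which measure the transcripts of a gene by a set of short probes. The 3 groups were control (double distilled water, intraperitoneal), Tl 2 days and Tl 5 days (thallium sulfate, intraperitoneal, kidneys taken 2 or 5 days later), with 1 array per group. The methods describe a single dose of 30 mg/kg, the series design gives 30 mg/kg daily, and the sample labels give 40 mg/kg daily. The labels also name spleen as the source, whereas the sample titles and the methods name kidney. The Tl 5 days group included rats that died before day 5, and whether any of them, or how many rats in all, went into an array is not given in the sources used here. Because each group has 1 array, no difference below was tested, no error can be given, and each value describes these arrays only.

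Values are log2 signals as processed by the authors, so a difference of 1 is a 2-fold change. Where 3 signals of a gene are listed, they run from the control array to the Tl 2 days array and then to the Tl 5 days array, and folds or differences against control are listed with 2 days first. The kidney label was checked with 14 proximal tubule markers, with medians of 16.16, 15.68 and 16.18. All of them were above the spike-in level described below on every array. Of 6 listed B cell markers 3 were measured, with medians of 3.38, 3.38 and 3.60. Of 6 T cell markers, 5 did not exceed the spike-in level on any array, while Cd4 had 8.71, 8.46 and 8.66. Dim signals were judged against the 63 ERCC probe sets, which target spike-in RNAs and were nearly fixed between arrays, with a 95th percentile of 6.83 on each array. Among the 36 genes, 16 did not exceed this level on any array and 11 exceeded it on all 3. The 1153 probe sets annotated as negative controls had 95th percentiles of 10.94, 11.04 and 10.99 and medians of 6.56, 6.42 and 6.62. A signal above the ERCC level can therefore lie within the range of these probe sets. The fold of a gene that is dim in the control group is uncertain in size. In a tissue piece, fewer cells of a type and less RNA per cell cannot be told apart.

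In the clotting cascade, tissue factor (F3) meets factor VII at a damaged vessel, thrombin (F2) is formed, and thrombin cuts fibrinogen, a protein of 3 different chains, into fibrin. Complement is a set of proteases and binding proteins that deposits C3 on surfaces and assembles a pore from C5 to C9. Most of these proteins are made by the liver, where the cytokine interleukin 6 acts through Stat3, and interleukin 1 through C/EBP and NF-kB factors, to raise the acute phase genes. Kidney tubule cells, macrophages and endothelium make some of them locally.

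The fibrinogen chain genes Fga, Fgb and Fgg and the 4 further genes with the largest absolute difference from control among those described (Serpina3n, C3, C6 and Cp) are shown by the 250 bases before their transcription start, since these genes were higher together in the Tl groups. Sequences are from RefSeq, build GRCr8, 5′ to 3′ on the strand of the gene. Capitals mark every match, on either strand, to 1 of 4 motifs: CTGGGAA, the core of the interleukin 6 response element; TTCNNNGAA, the palindrome bound by STAT factors; TTGCNNAA, a C/EBP site; and GTTAAT, the core of an HNF1 site. CTGGGAA on the reverse strand can overlap TTCNNNGAA, as it does in Serpina3n.
Fga, chr2:170671919-170672168, + strand: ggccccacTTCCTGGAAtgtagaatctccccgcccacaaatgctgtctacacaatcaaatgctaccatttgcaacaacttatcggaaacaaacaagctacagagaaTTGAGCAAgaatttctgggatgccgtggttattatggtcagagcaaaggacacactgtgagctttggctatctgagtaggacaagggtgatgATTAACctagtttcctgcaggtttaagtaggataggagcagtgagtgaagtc
Fgb, chr2:170700876-170701125, - strand: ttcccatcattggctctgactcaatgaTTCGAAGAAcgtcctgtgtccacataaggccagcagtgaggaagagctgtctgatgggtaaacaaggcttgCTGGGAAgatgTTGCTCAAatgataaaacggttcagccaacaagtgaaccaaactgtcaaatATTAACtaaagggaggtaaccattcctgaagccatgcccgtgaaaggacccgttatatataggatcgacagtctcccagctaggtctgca
Fgg, chr2:170652833-170653082, + strand: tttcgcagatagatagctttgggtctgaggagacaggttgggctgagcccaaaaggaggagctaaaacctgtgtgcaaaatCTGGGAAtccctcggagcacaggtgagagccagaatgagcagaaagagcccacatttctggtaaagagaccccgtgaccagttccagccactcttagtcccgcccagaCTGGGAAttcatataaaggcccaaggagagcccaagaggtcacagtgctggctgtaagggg
Serpina3n, chr6:129088142-129088391, + strand: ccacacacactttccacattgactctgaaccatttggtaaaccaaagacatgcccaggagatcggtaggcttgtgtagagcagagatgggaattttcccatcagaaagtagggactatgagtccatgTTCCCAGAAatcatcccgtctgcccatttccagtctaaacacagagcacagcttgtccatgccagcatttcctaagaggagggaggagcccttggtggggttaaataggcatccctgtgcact
C3, chr9:2201340-2201589, - strand: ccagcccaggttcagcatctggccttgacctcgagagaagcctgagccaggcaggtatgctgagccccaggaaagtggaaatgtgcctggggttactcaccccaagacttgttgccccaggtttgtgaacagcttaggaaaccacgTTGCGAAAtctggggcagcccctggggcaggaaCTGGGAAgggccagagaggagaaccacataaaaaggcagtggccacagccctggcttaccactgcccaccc
C6, chr2:55573383-55573632, + strand: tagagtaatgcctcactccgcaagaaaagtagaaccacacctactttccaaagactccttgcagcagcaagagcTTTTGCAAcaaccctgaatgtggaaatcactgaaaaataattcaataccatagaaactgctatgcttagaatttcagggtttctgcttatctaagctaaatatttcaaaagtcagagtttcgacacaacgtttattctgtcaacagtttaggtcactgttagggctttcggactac
Cp, chr2:104368420-104368669, + strand: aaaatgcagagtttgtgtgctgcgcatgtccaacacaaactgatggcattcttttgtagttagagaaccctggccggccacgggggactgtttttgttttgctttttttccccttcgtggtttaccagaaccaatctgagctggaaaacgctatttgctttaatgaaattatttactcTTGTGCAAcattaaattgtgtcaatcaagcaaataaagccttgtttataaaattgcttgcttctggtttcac

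The fibrinogen genes lie side by side on chromosome 2 as the consecutive protein coding genes Fgg, Fga and Fgb. Their windows held different motifs. Fgb held 1 match to each of the 4 motifs, Fgg held CTGGGAA at 2 places (starting at -169 and -61, counted from the transcription start) and no other, and Fga held the STAT palindrome at -242, a C/EBP match at -144 and an HNF1 match at -52 but not CTGGGAA. A second start for Fga is listed 18 bases downstream of the one used. In the Serpina3n window TTCCCAGAA, starting at -123, holds both the STAT palindrome and the reverse of CTGGGAA. The C3 window held a C/EBP match at -104 and CTGGGAA at -71, whereas C6 and Cp each held a single C/EBP match, at -176 and -72.

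Of the 36 measured genes, 24 had a window in the reference table, and the first listed start of each was used. The set of all windows keeps every listed start of a gene, so it counts starts rather than genes. CTGGGAA occurred in 7 of these 24 windows and in 9.56% of all 33469 windows of the same length. It was found in 4 of the 10 windows of genes over 2-fold higher than control in either Tl group (C3, Fgb, Fgg and Serpina3n) and in 3 of the 14 others (C1r, Plg and Serpinc1). TTCNNNGAA occurred in 5 of 24 windows against 7.67% of all, in 3 of the 10 and 2 of the 14. TTGCNNAA occurred in 12 of 24 against 9.22%, in 5 of the 10 and 7 of the 14, which is the same share. GTTAAT occurred in 5 of 24 against 6.45%, in 2 of the 10 and 3 of the 14. The interleukin 6, STAT and C/EBP motifs belong to the acute phase response described above, and the list holds acute phase genes. Their shares in the list are therefore not independent of how the motifs were chosen, and they use no array value. A match is only a run of letters and no binding was measured.

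Compared with the control group, 13 of the 36 genes exceeded a 2-fold increase at 2 days after Tl and 0 exceeded a 2-fold decrease. That comparison placed 6.03% of all 15037 genes past the upper limit and 4.65% past the lower one. In the Tl 5 days group, 13 of the 36 were again over 2-fold higher and 0 lower, against 5.37% and 4.87% of all genes. Both comparisons use the same control array. The genes and the limit were chosen with earlier results of these data known, so the contrast with all genes is not independent of the data. The genes past the limit in the Tl 2 days group were Fga, Fgb, Fgg, F3, Plat, C1qb, C3, C6, Cfi, Cd55, Serpina3n, Cp and Lbp. In the Tl 5 days group C1qc was past it and Cd55 was not. The median over the 36 genes was only 0.07 and 0.00 on the log2 scale, beside 0.00 and 0.00 for all genes, so the differences were carried by a subset. Among the 1153 probe sets annotated as negative controls, some of them bright, 8.33% passed the upper limit and 11.6% the lower one at 2 days. At 5 days 10.9% and 7.89% did so. Setting the median gene of every array to the same level changed the shares of all genes at 2 days to 5.00% higher and 5.81% lower, and those of the 36 to 12 genes higher and 0 lower.

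**Figure D1:**
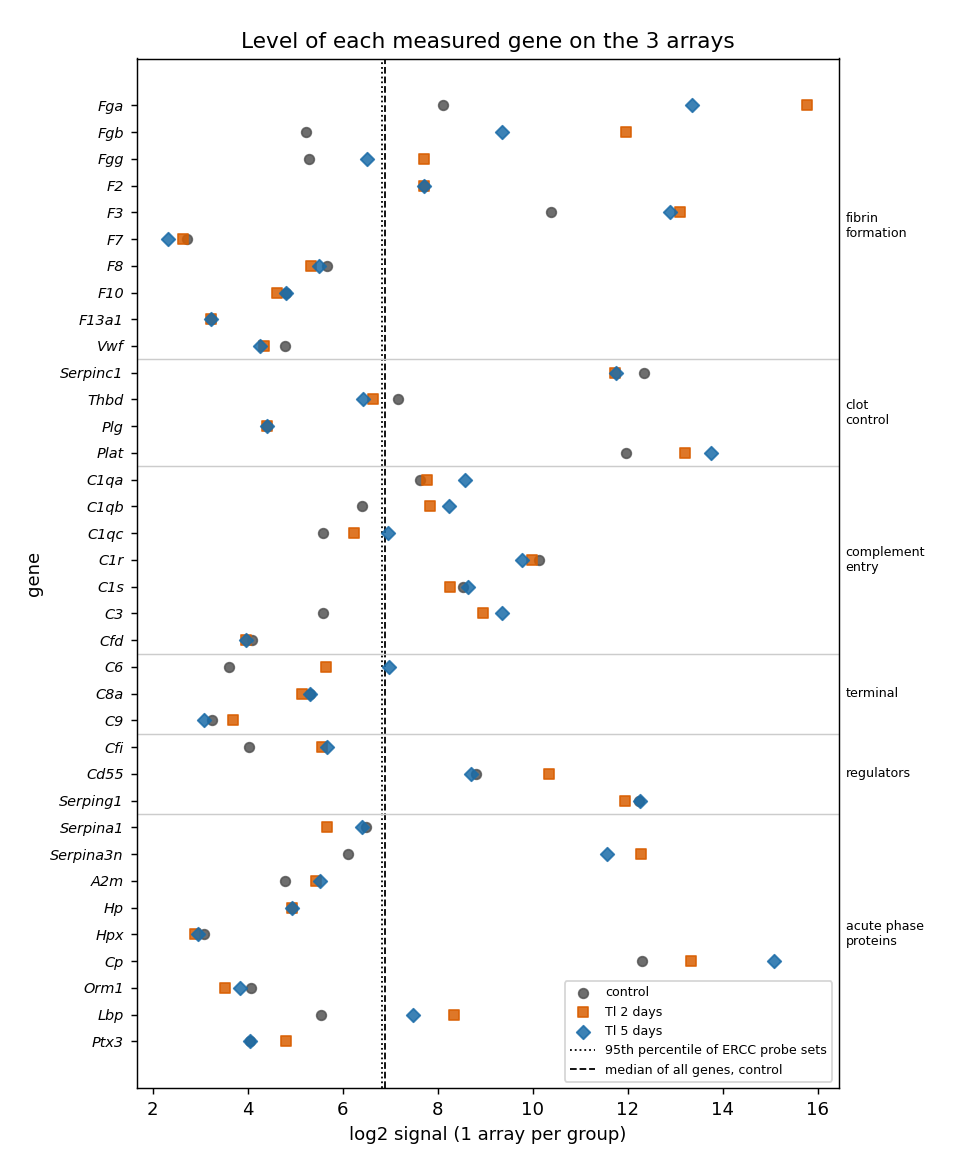
Log2 signal of each of the 36 measured genes on the control, Tl 2 days and Tl 5 days arrays, with 1 point per array and genes ordered by role. The dotted line is the ERCC level used for dim signals (6.83) and the dashed line the median of all genes on the control array (6.89). Fga, Fgb, F3, C3, Serpina3n and Lbp lie to the right in both Tl groups, while F2, F13a1, Plg and Hp have 1 value on all arrays.

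Among the 36 genes, Fga and Fgb showed the largest differences of those that form or dissolve clots, whereas Fgg differed less than F3. Fga, the alpha chain, had log2 signals of 8.11, 15.76 and 13.34. The control array was the low one and the Tl 2 days array the high one. Relative to control Fga was 200.2-fold higher at 2 days, the 4th highest difference of all genes, and 37.4-fold higher at 5 days, the 18th highest. Fgb, the beta chain, had 5.22, 11.95 and 9.36, which were differences of 6.73 and 4.15 on the log2 scale. Fgg, the gamma chain, had 5.29, 7.71 and 6.51, with smaller differences of 2.42 and 1.22. On the control array, Fgb and Fgg were below the ERCC level, whereas Fga exceeded that level and stayed under 9.28, the brightest spike-in.

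The chains also differed between the Tl arrays, a comparison that leaves out the control array. From 2 to 5 days, Fga fell by 2.42 on the log2 scale, Fgb fell by 2.59 and Fgg fell by 1.19. Expressed as folds, the Tl 5 days array was 5.35-fold lower for Fga, 6.01-fold lower for Fgb and 2.29-fold lower for Fgg. For this comparison 4 of the 36 genes were over 2-fold lower (these 3 chains and Cd55) and 2 were higher (C6 and Cp), against 3.07% and 2.21% of all genes.

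Whether liver markers moved with the fibrinogen genes was examined with 14 hepatocyte markers. Of these, 11 did not exceed the ERCC level on any array, among them Apoa1 (4.09, 3.88 and 4.01), Apoa2 (5.09 on all) and Tat (4.04 on all). Alb, the gene of serum albumin, had 9.67, 8.23 and 9.82. The median difference from control of the 14 markers was 0.00 at both times, with 1 over 2-fold higher (Cps1) and 2 lower (Alb and Cyp2c11) at 2 days, and 1 higher (Hpd) and 1 lower (Cyp2c11) at 5 days, all named after their values were seen. The share higher was 7.14% at both times, beside 6.03% and 5.37% of all genes. The shares lower were 14.3% and 7.14%, beside 4.65% and 4.87% of all genes. The summed linear signal of the 14 markers was 53100, 72100 and 254000, most of it from Hpd, a tyrosine catabolism enzyme also made in kidney (15.66, 16.13 and 17.95). Alb and Hpd were above the ERCC level on all arrays and Cyp2c11 on the control array only. The part of liver transcripts in the fibrinogen values was not tested.

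Outside fibrinogen, tissue factor F3, the initiator of clotting, had log2 signals of 10.39, 13.10 and 12.89. It was above the ERCC level on all arrays and was 6.56-fold and 5.63-fold higher than control. The other clotting factors did not pass the limit. F2, the thrombin precursor, was at 7.70 on all 3 arrays, and F13a1, the fibrin cross-linking enzyme, was at 3.23 on all 3. F7, F8, F10 and Vwf were below the ERCC level on every array, with differences from control between -0.53 (Vwf, Tl 5 days) and -0.01 (F10, Tl 5 days). Exactly equal values on all 3 arrays, found for 4 of the 36 genes (11.1%), occurred for 11.6% of all genes.

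Among the genes that limit or dissolve clots, Plat, tissue plasminogen activator, had 11.97, 13.21 and 13.74 and was 2.35-fold and 3.41-fold higher than control. Plg, the plasminogen on which it acts, was at 4.40 on all arrays. The other 2 genes were lower in both Tl groups without passing the limit. Serpinc1, antithrombin, had 12.34, 11.72 and 11.75, and Thbd, the endothelial thrombin receptor thrombomodulin, had 7.16, 6.63 and 6.43. Of 10 endothelial markers measured, 0 were over 2-fold higher or lower at 2 days and 3 were over 2-fold lower at 5 days (Cdh5, Emcn and Kdr, named after their values were seen), with median differences of -0.25 and -0.57. Their summed linear signal was 34400, 36900 and 18100. The 3 lower at 5 days are 30.0% of the list, beside 4.87% of all genes. The part of endothelial cells in the Thbd and Vwf values was not tested. Platelet and megakaryocyte markers were dim, with 5 of 6 below the ERCC level on every array and 0 past the limit. Of 6 red cell markers, 1 was over 2-fold lower at 2 days and 3 at 5 days, with median differences of -0.67 and -1.49 and a summed linear signal of 91500, 43500 and 6270. The haemoglobin genes Hba-a1 (15.55, 14.58 and 10.86) and Hbb (14.91, 14.09 and 10.83) were lowest on the Tl 5 days array, and Slc4a1, an anion exchanger also made in kidney collecting duct, had 13.56, 9.96 and 11.03. These were named after their values were seen. From 2 to 5 days Hba-a1 fell by 3.72 and Hbb fell by 3.26 on the log2 scale, in the comparison in which the fibrinogen chains were also lower. Against control the directions were opposite. Hba-a1 differed by -0.97 and -4.69 and Hbb by -0.83 and -4.09, while the fibrinogen chains were higher at both times. Between the Tl arrays the median difference of the 6 red cell markers was -0.21, with 2 over 2-fold lower and 1 higher (Slc4a1). That is 33.3% and 16.7% of the list, beside 3.07% and 2.21% of all genes. Hbb-b1, a further haemoglobin gene, differed by -0.22 between the Tl arrays. The part of blood in the values of the 36 genes was not tested.

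**Figure D2:**
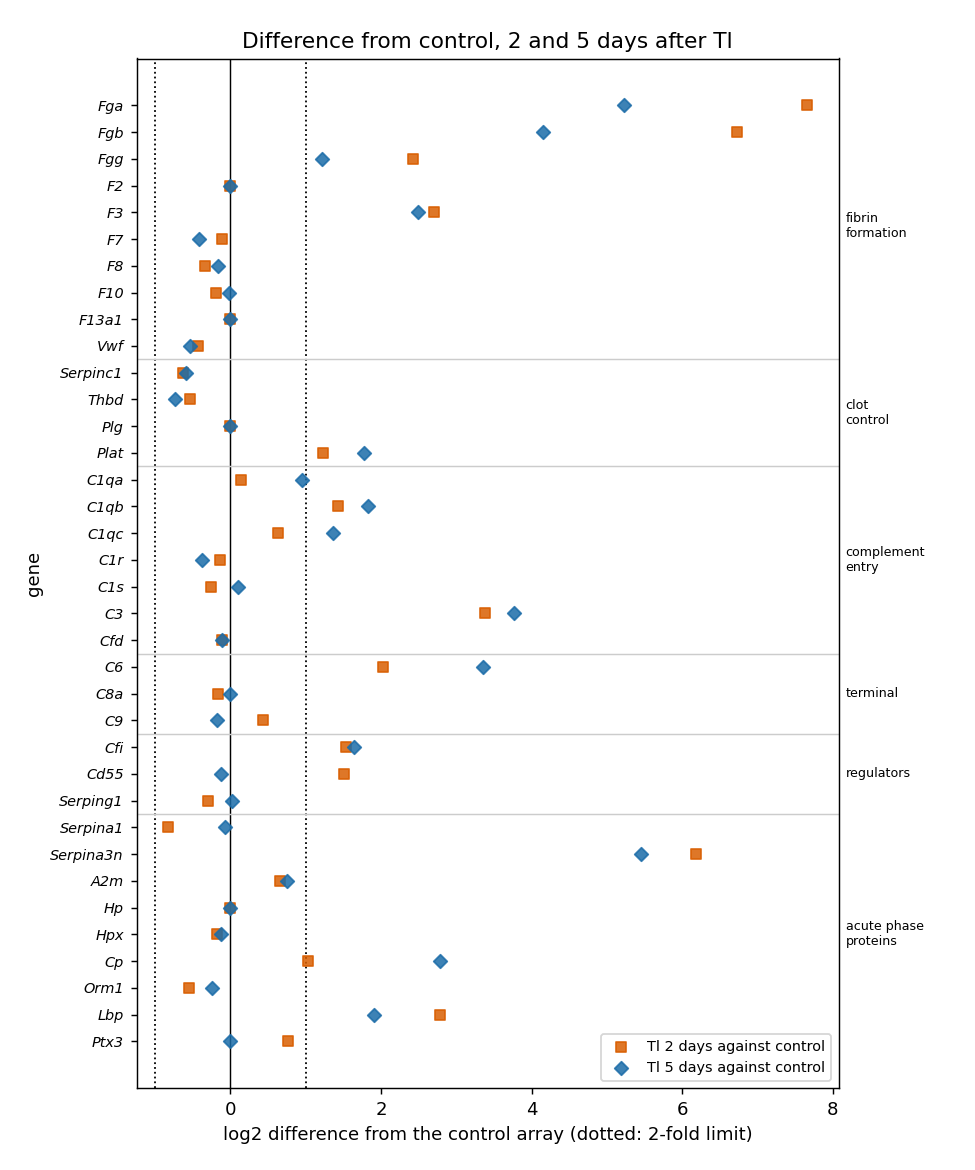
Difference from the control array on the log2 scale for each of the 36 genes, at 2 days (squares) and 5 days (diamonds) after Tl, with dotted lines at the 2-fold limit. The fibrinogen chains and Lbp are higher at 2 days than at 5 days, whereas C6 and Cp are higher at 5 days. No gene lies beyond the lower limit.

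Of the complement genes among the 36, C3, the central component that all activation routes cleave, showed the largest difference. Its log2 signal was 5.58, 8.95 and 9.35 on the 3 arrays, or 10.4-fold and 13.6-fold higher than control. The control value was below the ERCC level and both Tl values were above it. C1r and C1s, the proteases of the classical pathway, did not pass the limit, with differences of -0.14 and -0.37 for C1r and of -0.26 and 0.11 for C1s. Both were above the ERCC level on all arrays, and they are neighbouring genes on chromosome 4. Cfd, the protease of the alternative pathway, was dim, at 4.08, 3.97 and 3.97.

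The 3 chains of C1q, the recognition protein of the classical pathway, are encoded by consecutive genes on chromosome 5. C1qb had log2 signals of 6.41, 7.84 and 8.24, which were 2.69-fold and 3.55-fold above control. C1qc had 5.59, 6.23 and 6.96, with differences of 0.64 and 1.37. C1qa had 7.62, 7.77 and 8.57, with differences of 0.15 and 0.95, just within the limit at 5 days. For each chain the control array was lowest and the Tl 5 days array highest, and the control signals of C1qb and C1qc were dim.

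C1q is made mainly by macrophages. Of 14 macrophage markers, 6 were over 2-fold higher and 0 lower in each Tl group, with median differences of 0.92 and 0.96 on the log2 scale. The higher share was 42.9%, beside 6.03% and 5.37% of all genes, of which 4.65% and 4.87% were lower. Cd68, a lysosomal protein of macrophages, had 6.96, 8.51 and 9.02, and Mrc1, the mannose receptor, had 6.25, 7.67 and 9.50. Cd163 (4.53), Adgre1 (6.14) and Marco (4.10) had exactly the same value on all 3 arrays, below the ERCC level. Such ties made up 21.4% of the list and 11.6% of all genes, and whether these 3 genes changed cannot be read from them. The summed linear signal of the list was 58600, 101000 and 238000, most of it from Lyz2. Of this list, genes were picked out with their values known, and the part of macrophages in the C1q differences was not tested. Neutrophil markers were below the ERCC level on all arrays for 9 of 9 genes, with 0 past the limit at 2 days and 2 over 2-fold higher at 5 days. These were S100a8 (3.98, 3.78 and 5.44) and S100a9 (4.76, 4.83 and 6.04), named after their values were seen, and the median difference of the list was 0.00 and 0.41. The 2 genes are 22.2% of the list, beside 5.37% of all genes at 5 days.

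Of the terminal complement genes, C6, a component of the membrane pore, had 3.61, 5.64 and 6.97. It was 4.09-fold and 10.3-fold higher than control and 2.51-fold higher at 5 than at 2 days, but it exceeded the ERCC level only on the Tl 5 days array. C8a and C9, which join the same pore, were dim on every array, with C8a at 5.30, 5.14 and 5.30 and C9 at 3.25, 3.68 and 3.07.

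Among regulators of complement, Cd55, a membrane protein that dissociates C3 convertases, had 8.81, 10.33 and 8.70. It was above the ERCC level on all arrays and 2.85-fold higher than control at 2 days. Its 5 days value lay 0.12 below control on the log2 scale. Cfi, the protease that inactivates C3b, had 4.02, 5.56 and 5.66, so both differences (1.54 and 1.64) passed the limit although no array exceeded the ERCC level. Serping1, the inhibitor of C1r and C1s, had 12.23, 11.94 and 12.26. Cd59b, an inhibitor of pore assembly, had 15.91, 16.17 and 16.17, with differences of 0.26 at both times.

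**Figure D3:**
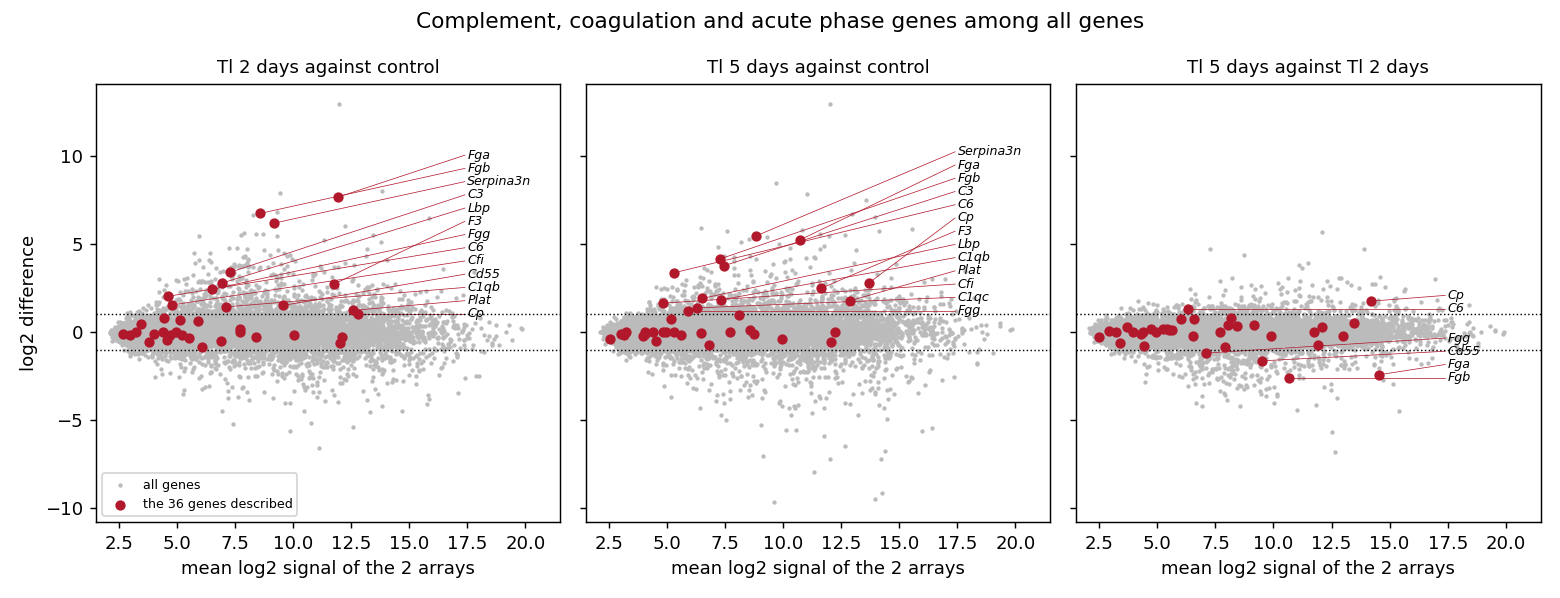
Log2 difference against mean log2 signal for all 15037 genes (grey) and the 36 genes (red) in the 3 comparisons, with dotted lines at the 2-fold limit and names for those past it. In both comparisons with control the 13 named genes lie above the upper line and 0 below the lower one. Between the Tl arrays 2 lie above and 4 below.

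The acute phase proteins were divided. Serpina3n, a protease inhibitor of the antichymotrypsin family, had log2 signals of 6.10, 12.28 and 11.55. It was 72.6-fold and 43.7-fold higher than control, the 9th and 14th highest differences of all genes, from a control signal below the ERCC level. Several Serpina3 genes lie near it on chromosome 6, and whether its probe set also reads them was not examined. Lbp, which binds bacterial lipopolysaccharide, had 5.55, 8.33 and 7.47, 6.85-fold and 3.76-fold above control, also from a dim control signal.

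Cp, the copper-carrying ferroxidase ceruloplasmin, differed from these in its course. It had 12.29, 13.32 and 15.08, bright on all arrays, and was lowest in the control group and highest in the Tl 5 days group. The differences from control were 1.03 and 2.78 on the log2 scale. The 2 days value was just past the limit and fell within it, at 0.98 and 0.91, when the arrays were quantile normalized or centred. Between the Tl arrays Cp was 3.37-fold higher at 5 days, the 69th highest difference of all genes.

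The other 6 acute phase genes did not exceed the ERCC level on any array and did not pass the limit. Hp, haptoglobin, was at 4.94 on all 3 arrays. A2m, a broad protease inhibitor that in rats is a strong acute phase protein of the liver, had 4.78, 5.44 and 5.53. Ptx3, a pentraxin made outside the liver, had 4.04, 4.81 and 4.04. Serpina1, alpha-1 antitrypsin, had 6.49, 5.66 and 6.41, and its difference of -0.82 at 2 days was the most negative of the 36. Hpx, the haem carrier, and Orm1, orosomucoid, differed from control by -0.55 to -0.12. In this role 3 of 9 genes (Serpina3n, Cp and Lbp) were thus over 2-fold higher than control in each Tl group and 0 were lower. The higher share was 33.3%, beside 6.03% and 5.37% of all genes, of which 4.65% and 4.87% were lower.

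Further genes of the same systems were counted from lists that hold none of the 36. Of 22 other coagulation and fibrinolysis genes, 5 were over 2-fold higher and 1 lower at 2 days, and 3 were higher and 2 lower at 5 days. As shares of the list these are 22.7% and 4.55% at 2 days, and 13.6% and 9.09% at 5 days. Of all genes, 6.03% were higher and 4.65% lower at 2 days, and 5.37% and 4.87% at 5 days. Anxa2 and S100a10, which form a plasminogen receptor on cell surfaces, had 10.10, 13.77 and 12.97, and 9.19, 12.49 and 11.93 (signals of Anxa2 first). Proc, the precursor of the anticoagulant protein C, had 10.14, 8.91 and 6.88, and Serpinf2, the plasmin inhibitor, had 14.93, 14.02 and 12.14. Both were over 2-fold lower at 5 days, with log2 differences of -3.26 and -2.79.

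Of 24 other complement genes and receptors, 3 were over 2-fold higher at 2 days, 5 at 5 days and 0 lower at either time. The higher shares were 12.5% and 20.8%, beside 6.03% and 5.37% of all genes, of which 4.65% and 4.87% were lower. Clu, which also inhibits pore assembly, had 9.83, 17.81 and 17.31, the 2nd and 4th highest differences of all genes. C4b, a component of the classical pathway convertase with a close copy, C4a, in the rat annotation, had 3.50, 6.43 and 5.93, below the ERCC level throughout. Itgam and Itgb2, the chains of complement receptor CR3 of myeloid cells, differed from control by 0.97 and 2.01, and by 1.62 and 1.66, with Itgam dim on every array. Of 21 other acute phase genes, 3 were over 2-fold higher and 2 lower in each Tl group, which is 14.3% and 9.52%. All genes stood at 6.03% and 4.65% at 2 days, and at 5.37% and 4.87% at 5 days. The lower genes of the list were Alb (-1.44) and Azgp1 (-1.27) at 2 days, and Apcs (-1.15) and Azgp1 (-1.29) at 5 days. Lcn2, which binds bacterial siderophores, differed by 7.89 and 8.45 from a dim control signal of 5.47. Fgl2, a membrane prothrombinase, had 6.71, 8.64 and 7.89, and Fn1, fibronectin, had 12.87, 14.78 and 14.08.

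The genes that signal the acute phase response had the largest share past the limit among the pathway lists, with 9 of 22 over 2-fold higher and 1 lower at each time, and median differences of 0.75 and 0.31. The higher share was 40.9%, beside 6.03% of all genes at 2 days and 5.37% at 5 days. The lower share, 4.55%, was near the 4.65% and 4.87% of all genes. Lif, a cytokine of the interleukin 6 family, had 5.09, 10.68 and 7.68. Socs3, the feedback inhibitor that Stat3 induces, had 5.01, 10.49 and 8.05. Both were lowest in the control group and highest in the Tl 2 days group, and between the Tl arrays Lif was 7.99-fold and Socs3 5.42-fold lower at 5 days. Osmr, the receptor of oncostatin M, had 10.72, 14.53 and 13.64, and Cebpd, a C/EBP factor, had 5.81, 8.94 and 8.56. The gene that was lower at each time was Lifr, the receptor of Lif, with 16.52, 15.21 and 14.78. Its differences from control were -1.31 and -1.74. Il6 and Stat3, named after their values were seen, had 4.15, 5.06 and 4.15, dim throughout, and 12.92, 14.65 and 14.07. Il1b was at 5.15, 5.15 and 5.07 and Tnf at 4.71, 4.71 and 4.26, also dim and named in the same way.

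**Figure D4:**
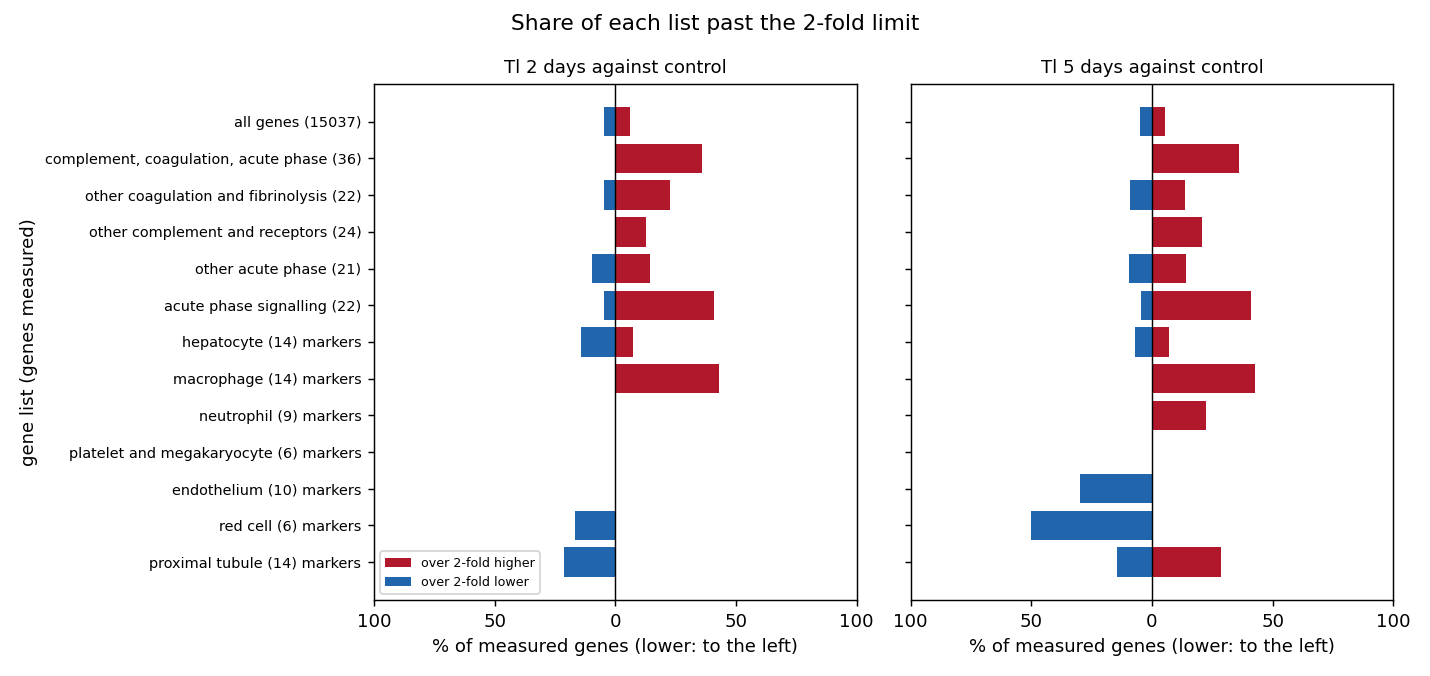
Percent of the measured genes of each list that were over 2-fold higher (right, red) or lower (left, blue) than the control array at 2 and 5 days, with the number of genes measured in parentheses. The 36 genes described stand at 36.1% higher and 0% lower in both panels, against 6.03% and 5.37% higher for all genes.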

How the data were processed

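The deposited values are log2 signals of single probe sets on 3 arrays, made by the authors, whose methods name Transcriptome Analysis Console. Its version, summarization and normalization are not given in the sources used here. The base of the logarithm was inferred from folds given in the study. Of 24834 probe sets, 15049 had a single gene symbol in the platform annotation and the 9785 others did not. Averaging the probe sets of 10 genes left 15037 genes. Differences of log2 values, counts past the 2-fold limit of the study and medians were computed, with no test, since each group has 1 array, which is also what limits the precision. The genes, lists and limits were chosen with earlier results of these data known. Genes past the limit in any of the 3 comparisons were named with their value on each array, others where their role is known, and up to 4 genes of each pathway list by largest absolute difference from control. Windows of 250 bases before each start were read from RefSeq (GRCr8) and searched on both strands. Alternatives were quantile normalization, median centring, a floor, a filter on low values, the brightest probe set and limits of 1.5-fold and 3-fold. The counting code was checked on simulated arrays with shifts past the limit and little noise, which does not test the calls made here. Computation used pandas 2.3.3 and numpy 2.4.6 in Python 3.11.15, and plots were drawn by matplotlib 3.10.9.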

Additional observations from a re-analysis of the deposited data

Results flagged for a closer look

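Cd55 drew attention because its differences from the same control array had opposite signs, at 1.51 on the log2 scale at 2 days and -0.12 at 5 days. The second value lies well within the 2-fold limit. Whether the times differ was not tested, as a single array stands for each.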

How the results depend on the processing

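No paired analysis was possible because each group has 1 array, and for the same reason no replicate could be left out. A change of over 1.5-fold in a count or a difference was taken as a move. Under quantile normalization, centring, the floor at the 20th percentile and the brightest probe set, the 6 counts and 3 medians over the 36 genes did not move in this sense, although centring turned the median at 2 days from 0.07 to -0.05 and lowered the median of all genes by 0.12. None of the 42 differences of the 14 genes named by the limit moved or changed sign under the settings that kept the gene, and only the Cp call at 2 days was lost. With genes below the 40th percentile left out, 20 of the 36 genes remained, their medians were 1.13 at 2 days and 1.30 at 5 days, and 1 gene was higher at 5 than at 2 days. With only genes above the ERCC level on at least 1 of the 2 arrays, a setting chosen after seeing the data, the medians were 1.33 over 18 genes and 1.77 over 19. Such filters keep genes that are bright in 1 group only, so these medians are not those of all 36. At a 1.5-fold limit, 2 genes were lower than control at each time, and 5 were higher and 8 lower at 5 than at 2 days. At a 3-fold limit, 8 genes were higher than control at 2 days, and 1 was higher at 5 than at 2 days. Signal over background limits at least the 16 genes that exceeded the ERCC level on no array.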
